A study of Homo sapiens with 18 samples.

Results

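The 39 genes of the HOXA, HOXB, HOXC and HOXD clusters were examined in 3 metastatic breast cancer lines, with and without knockdown of WDR5. They were taken as every gene named HOXA, HOXB, HOXC or HOXD followed by a number, 39 of the 58815 genes in the count table. The clusters held 11, 10, 9 and 9 genes. Of these, 37 were found by symbol, and HOXC8 and HOXC9 by Ensembl identifier because their symbols were blank. RNA was read by sequencing in the lines LM2, BrM3 and BoM, derivatives of the human triple-negative line MDA-MB-231 selected in mice for growth in lung, brain and bone, respectively. Cells of every group carried a doxycycline (DOX)-inducible hairpin and were kept in DOX at 1 μg/mL for 3 days. The control groups expressed shCtrl and the knockdown groups expressed the hairpin shWDR5-1 (shWDR5 hereafter). Each of the 6 groups had 3 libraries from different passages, 18 in all. Because 1 hairpin against WDR5 was used, loss of WDR5 and other effects of that hairpin cannot be told apart.

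HOX genes encode homeodomain transcription factors that give cells their position along the head-to-tail axis, and genes at the low-numbered end of a cluster act in anterior regions while those at the high-numbered end act in posterior regions. In adult epithelia, including breast, subsets of the clusters stay active. Their active state is kept by KMT2 (MLL) complexes, which methylate lysine 4 of histone H3 and contain WDR5 as a core subunit, and their silent state by the Polycomb complexes PRC1 and PRC2. The comparisons below ask which HOX genes these lines express and whether their RNA differs after knockdown of WDR5.

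Library totals ranged from 17485841 to 119667013 counts on genes. WDR5 RNA, in CPM (counts scaled to library size, with TMM factors), was 123 ± 11.4 in LM2 shCtrl and 23.2 ± 2.34 in LM2 shWDR5 (mean ± SD, n = 3). BrM3 had 85.2 ± 6.50 and 22.4 ± 1.50 CPM, and BoM 87.7 ± 1.35 and 19.0 ± 4.55. The log2 fold changes were -2.40, -1.93 and -2.21 in LM2, BrM3 and BoM (SE 0.14 in each; edgeR adjusted p = 1.1e-08, 3.3e-07 and 3.8e-08). Of the markers fixed for the cell type, VIM read 1540 to 1780 CPM and CD44 568 to 665 CPM in shCtrl (group means). The levels of CAV1 and of the epithelial genes KRT8, KRT18 and EPCAM are not given here. VIM and CD44 alone therefore do not place the lines as mesenchymal or epithelial. ESR1, PGR, FOXA1 and CDH1 were under 1 CPM in every group, and the leukocyte gene PTPRC too, while the endothelial gene PECAM1 lay between 0.962 and 2.69 CPM in shCtrl. Averaged over the lines, EPCAM changed by -0.56 with shWDR5 and PECAM1 by 0.44 (edgeR adjusted p = 2.4e-05 and 0.0066), VIM by 0.24, CAV1 by 0.22 and KRT18 by 0.24. Thus 1 of 14 tested markers fell and 4 rose, where 17.6% of all tested genes fell and 14.3% rose. The 3 markers of other cell types (PTPRC, PECAM1 and ALB) summed to 2.43 to 2.45 CPM in LM2 shCtrl and 3.41 to 5.01 in LM2 shWDR5, to 1.54 to 1.90 and 1.92 to 2.40 in BrM3, and to 3.30 to 4.04 and 4.03 to 5.18 in BoM, and their part in the results was not tested. The luminal marker GATA3 (5.53 to 7.58 CPM) and ERBB2 (56.9 to 74.3 CPM) were detected. The table held 0 spike-in rows, so all changes are relative to the total RNA counted.

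The sequence upstream of a HOX start site was printed for genes that fell and genes that did not pass the test, to set their base composition side by side. The set of RefSeq (GRCh38.p14) start sites at hand, which need not be complete, held 20 of the 39 genes. Of the genes tested below, only HOXA13, HOXC4, HOXD1 and HOXD4 were among them, so most HOX windows are of untested genes. HOXC4 and HOXC5 have the same listed start, chr12:54016638-54016887 (plus strand) being the 250 bases before it. The windows of HOXA13, HOXD4 and HOXD1 were chr7:27200092-27200341 (minus strand), chr2:176151300-176151549 (plus strand) and chr2:176188418-176188667 (plus strand). HOXC4 and HOXA13 were among the genes that fell with shWDR5 over the lines, and HOXD4 and HOXD1 were not. Capitals mark the CCAAT box (CCAAT, or ATTGG when read from the other strand) and the E-box CACGTG, which reads the same on both strands. The sequences run 5′ to 3′.
HOXC4 and HOXC5: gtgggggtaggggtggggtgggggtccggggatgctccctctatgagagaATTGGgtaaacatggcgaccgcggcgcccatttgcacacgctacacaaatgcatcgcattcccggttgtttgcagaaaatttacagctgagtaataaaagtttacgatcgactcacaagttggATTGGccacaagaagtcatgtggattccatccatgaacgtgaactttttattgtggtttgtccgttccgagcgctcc
HOXA13: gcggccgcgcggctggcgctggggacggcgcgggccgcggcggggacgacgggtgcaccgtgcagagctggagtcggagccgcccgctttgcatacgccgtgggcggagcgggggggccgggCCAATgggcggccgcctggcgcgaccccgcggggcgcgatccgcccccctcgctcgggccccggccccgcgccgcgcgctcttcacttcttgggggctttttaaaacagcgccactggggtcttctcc
HOXD4: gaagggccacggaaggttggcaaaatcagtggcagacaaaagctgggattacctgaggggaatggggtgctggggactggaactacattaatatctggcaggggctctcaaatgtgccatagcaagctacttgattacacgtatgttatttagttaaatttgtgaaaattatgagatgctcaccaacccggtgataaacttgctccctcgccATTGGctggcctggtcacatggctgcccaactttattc
HOXD1: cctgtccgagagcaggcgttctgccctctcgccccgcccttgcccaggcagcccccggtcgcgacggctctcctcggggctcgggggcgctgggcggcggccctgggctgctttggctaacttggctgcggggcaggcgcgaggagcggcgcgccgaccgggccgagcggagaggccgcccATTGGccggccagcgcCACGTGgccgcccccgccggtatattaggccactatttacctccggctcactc
The HOXC4 window had 50.8% GC and 14 CG dinucleotides, and the HOXD4 window 47.6% GC and 4. The windows of HOXA13 and HOXD1 were richer, with 78.0% GC and 40 CG dinucleotides, and 74.8% GC and 31. All 4 windows held a CCAAT box, and HOXD1 also an E-box. Over all 26 HOX windows in the RefSeq table, some of them several starts of 1 gene, 17 (65.4%) held CCAAT, against 32% of the 34943 windows of all genes. CACGTG was in 8 of the HOX windows (30.8%), against 6.32% of all. A TATA box (TATAAA on either strand) was in 5 (19.2%), against 10.8%. These are descriptions of letters in the window. Base composition did not separate the genes that fell from the others among the 4 windows printed, which are too few to tell whether it does so for the tested genes.

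In shCtrl cells, HOX expression was narrow and led by HOXB9. Of the 39 genes, 15 passed the filter on low counts and were tested: HOXA13, 7 HOXB genes (HOXB3 to HOXB9), 5 HOXC genes (HOXC4, HOXC6, HOXC8, HOXC9 and HOXC10), and HOXD1 and HOXD4. No count was found in any library for 7 genes (HOXA4, HOXA9, HOXA10, HOXB13, HOXC11, HOXC12 and HOXD8). The other 17 had at least 1 count but were not tested, and 21 of the 24 untested genes never went above 5 counts in a library. The filter required 0.264 CPM in 3 libraries. Just inside it were HOXC10 and HOXC9, with 97 and 153 counts over the 18 libraries, and just outside it was HOXB2, with 106. HOXC10, HOXC9, HOXD1, HOXC4 and HOXB8 reached that level in only some groups, so that the number tested is no measure of how many were active in each line.

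Levels were compared between genes as CPM per kb of exon (GENCODE 44). HOXB9, which with its paralogs acts in mammary gland development, stood at 10.3 CPM per kb as the mean of the 9 shCtrl libraries, the 78.4th percentile of all tested genes. Every other HOX gene was below the median tested gene (2.20 CPM per kb), the next being HOXC6 at 1.07, HOXB3 at 0.949 and HOXB5 at 0.812. HOXB6 (0.659), HOXD4 (0.532), HOXB7 (0.519), HOXC8 (0.472) and HOXB4 (0.457) followed. The lowest of those tested were HOXC9 (0.181), HOXA13 (0.162), HOXB8 (0.142), HOXD1 (0.124), HOXC4 (0.122) and HOXC10 (0.0953 CPM per kb). Neighbours in this order below HOXB9 had overlapping ranges over the 9 libraries. The order also depended on the exon bases used. Divided by exon bases that no other gene covers, HOXB6 (0.983) stood above HOXB5 (0.846). HOXD1 (0.312) then stood above HOXC9 (0.200) and HOXA13 (0.164).

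**Figure D1:**
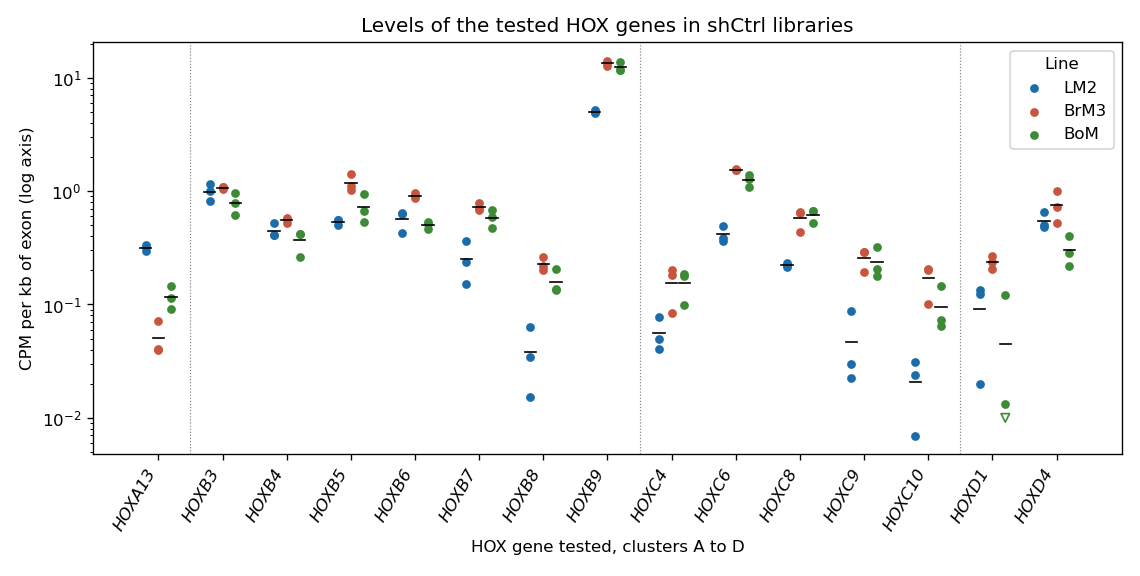
CPM per kb of exon (log axis) of the 15 tested HOX genes in the 3 shCtrl libraries of LM2, BrM3 and BoM. Each point is a library, black lines are group means, dotted lines separate the clusters and the open triangle is a library with a count of 0. HOXB9 stands above all other genes in every line, and the HOXC genes lie lower in LM2 than in the other lines.

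Summed over the 39 genes, the level was 9.65 ± 0.418 CPM per kb in LM2, 22.0 ± 0.425 in BrM3 and 18.6 ± 1.24 in BoM (shCtrl, mean ± SD, n = 3). The ranges did not overlap between LM2 (9.23 to 10.1) and the other lines (21.6 to 22.3 and 17.4 to 19.9). The HOXB cluster gave 81.5% of the sum in LM2, 82.3% for BrM3 and 83.8% for BoM, and HOXB9 alone 51.7%, 60.8% and 66.7%. The HOXC genes gave 8.19%, 12.8% and 13.3%. The smaller shares were those of HOXD (6.90%, 4.64% and 2.02%) and HOXA (3.43%, 0.278% and 0.866%), the latter almost wholly from HOXA13.

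BrM3 had the highest mean shCtrl level of 13 of the 15 tested genes, LM2 of HOXA13 and BoM of HOXC8, and LM2 had the lowest of 9. These ranks were not counted over all tested genes, so they have no background. They include the genes named below for which the filter favoured a low LM2 value. In the fit over all genes, 10 of the 15 were higher in BrM3 than in LM2 and 1 was lower. For comparison, 21.2% of all 18428 tested genes were higher and 20.2% lower. Between BoM and LM2, 8 were higher and 1 lower (background 22.6% and 22.1%). The tested HOXC genes (HOXC4, HOXC6, HOXC8, HOXC9 and HOXC10) were higher in both lines than in LM2, with log2 differences of 1.37 to 3.00 for BrM3 and 1.38 to 2.07 for BoM (edgeR adjusted p at most 0.0049 and 0.0084). Without BoM shCtrl replicate 2, HOXC9 did not pass between BoM and LM2. HOXB8, HOXC4, HOXC9, HOXC10 and HOXD1 reached the filter in no LM2 shCtrl library, which favoured a lower value in LM2, and of the 10 others 6 were higher in BrM3 and 4 in BoM. HOXB7, HOXB8 and HOXB9 at the posterior end of the HOXB genes detected were higher in both lines as well. HOXB5 and HOXB6 were higher in BrM3 (1.13 and 0.65, edgeR adjusted p = 0.0018 and 0.0046). In BoM they did not pass (0.44 and -0.22, adjusted p = 0.21 and 0.34). HOXB3 and HOXB4, at the anterior end, did not pass the test against LM2 in either line (log2 differences between -0.34 and 0.29, adjusted p at least 0.092).

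HOXB9 read 12.8, 13.3 and 12.6 CPM in the LM2 shCtrl libraries, 36.2, 33.1 and 34.7 in BrM3, and 30.2, 30.6 and 35.6 in BoM. LM2 lay below both other lines without overlap, and BrM3 and BoM overlapped. The log2 differences from LM2 were 1.43 ± 0.12 (SE) in BrM3 and 1.32 ± 0.12 in BoM (edgeR adjusted p = 1.1e-08 and 3.3e-08). HOXC6, expressed in the thoracic segment and its mammary buds, read 1.26, 1.34 and 1.70 CPM in LM2, with BrM3 at 5.32, 5.29 and 5.42 and BoM at 3.74, 4.83 and 4.44, and no overlap of LM2 and the rest. Its log2 differences from LM2 were 1.87 ± 0.20 and 1.56 ± 0.20 (adjusted p = 3.1e-07 and 3.4e-06).

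HOXB7 read 0.557, 0.231 and 0.364 CPM in LM2 shCtrl, 1.03, 1.09 and 1.18 in BrM3, and 0.899, 0.716 and 1.04 in BoM. HOXB8, known from the growth of myeloid progenitors, read 0.0371, 0.0826 and 0.154 CPM in LM2, where it rested on 1 to 19 counts, and 0.324 to 0.633 in the 6 BrM3 and BoM libraries. Both genes were lower in every LM2 library than in any BrM3 or BoM library. The log2 differences between BrM3 and LM2 were 1.61 ± 0.26 for HOXB7 and 2.26 ± 0.35 for HOXB8 (edgeR adjusted p = 5.5e-05 and 3.0e-05). HOXB5 read 0.928, 1.02 and 1.03 CPM in LM2 and 1.90, 2.63 and 2.08 in BrM3, a log2 difference of 1.13 ± 0.26 (adjusted p = 0.0018). Its BoM libraries, at 1.25, 1.76 and 0.986, overlapped the range of LM2 and did not pass the test (log2 difference 0.44 ± 0.28, adjusted p = 0.21).

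HOXA13, which patterns the distal limb and the genital tubercle, ran the other way. It read 1.71, 1.50 and 1.62 CPM in LM2 shCtrl, 0.364, 0.203 and 0.206 CPM in BrM3 shCtrl, and 0.574, 0.460 and 0.739 in BoM shCtrl. The 3 lines did not overlap. The log2 difference from LM2 was -2.59 ± 0.30 in BrM3 and -1.48 ± 0.28 in BoM (edgeR adjusted p = 9.5e-07 and 2.5e-04), and BoM was higher than BrM3 by 1.11 ± 0.35 (adjusted p = 0.021). HOXA7 had 6 counts over the 18 libraries.

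Between BoM and BrM3, 5 of the 15 were lower in BoM (HOXB3, HOXB4, HOXB6, HOXD1 and HOXD4) and HOXA13 was higher (background 16.1% lower and 14.4% higher). Of these, HOXD1 reached the filter in 3 BrM3 shCtrl and 0 BoM shCtrl libraries, which favoured a lower value in BoM. HOXB6 differed by -0.87 ± 0.18 (edgeR adjusted p = 0.0012). HOXD4, an anterior gene of the HOXD cluster, read 0.742, 0.545 and 0.566 CPM in LM2 shCtrl, 0.829, 1.14 and 0.591 in BrM3, and 0.324, 0.460 and 0.246 in BoM. BoM lay below both other lines, and LM2 and BrM3 overlapped. The BoM to BrM3 log2 difference was -1.25 ± 0.35 (adjusted p = 0.011). HOXD1 read 0.0371, 0.231 and 0.251 CPM in LM2 shCtrl, with BrM3 at 0.445, 0.506 and 0.386 and BoM at 0.0250, 0.230 and 0, a difference of -2.14 ± 0.65 between BoM and BrM3 (adjusted p = 0.018). Without BoM shCtrl replicate 2 it was -4.53, and the call was lost without BrM3 shCtrl replicate 2, BoM shCtrl replicate 1 or BoM shCtrl replicate 3. Of the exon bases of HOXD1, 60.1% are shared with genes on the opposite strand, HAGLR and one without a symbol, and since the strand setting of the counting is not stated in the sources used here, its reads and theirs cannot be told apart. HOXD12, the third HOXD gene by level, had 28 counts over all libraries. The number called between BoM and BrM3 was 6, and it was 1 without BrM3 shCtrl replicate 2, 2 without BoM shCtrl replicate 1, and 3 without BrM3 shCtrl replicate 3 or BoM shCtrl replicate 3.

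**Figure D2:**
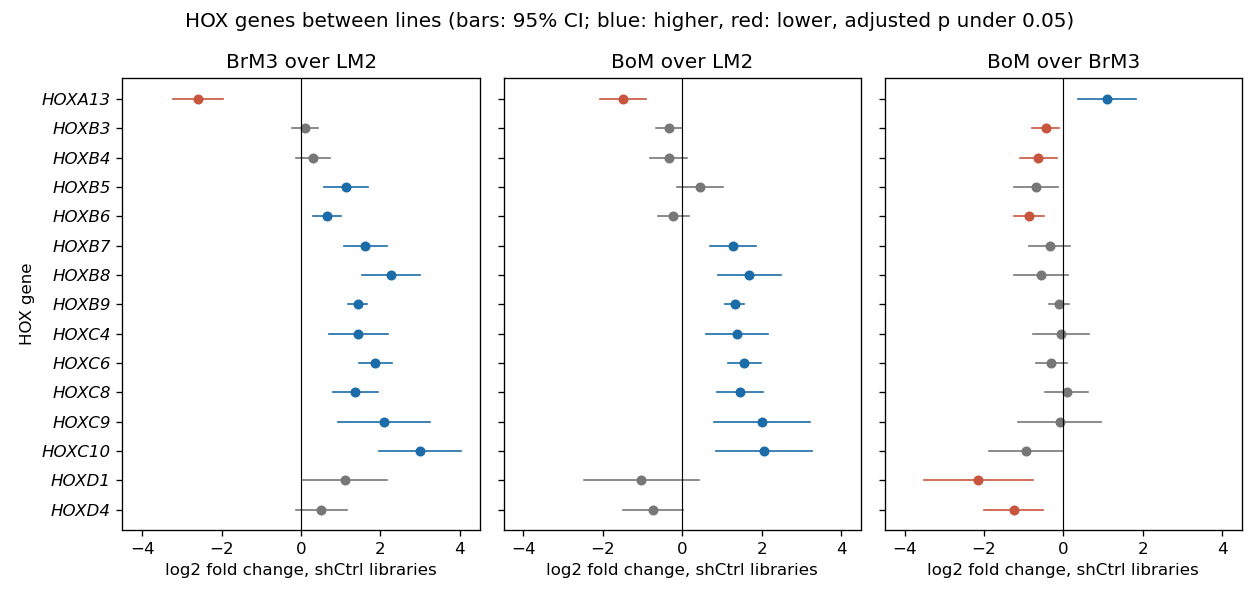
Log2 fold change between shCtrl groups of the 15 tested HOX genes for each pair of lines, with 95% confidence intervals. Blue genes were higher and red genes lower at an adjusted p under 0.05 (edgeR), and grey genes did not pass. All HOXC genes are blue against LM2, HOXA13 is red, and against BrM3 the BoM differences are mostly negative.

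With shWDR5, averaged over the lines with equal weight, 8 of the 15 tested genes fell and 0 rose (edgeR, adjusted p under 0.05), while 17.6% of all tested genes fell and 14.3% rose. The genes that fell were HOXA13, HOXB4, HOXB9, HOXC4, HOXC6, HOXC8, HOXC9 and HOXC10. HOXC10 reached the filter's level of 0.264 CPM in 3 shCtrl and 0 shWDR5 libraries and HOXC9 in 6 and 1, so the filter favoured a lower value for both with shWDR5. Of the 13 others, 6 fell. At an unadjusted p under 0.05 there were 9 lower and 0 higher (22.3% and 19.6% of all tested genes), the ninth being HOXB3. DESeq2 called 7 lower and 0 higher (16.7% and 16.8% of all genes), with HOXB3 (-0.23, adjusted p = 0.048) but without HOXC4 and HOXC9 (adjusted p = 0.10 and 0.089). The median log2 fold change of the 15 was -0.62, and it was -0.01 over all genes tested. In bulk RNA, fewer cells expressing a gene and less RNA per cell cannot be told apart. The summed HOX level went from 9.65 ± 0.418 to 7.96 ± 1.45 CPM per kb in LM2. In BrM3 it went from 22.0 ± 0.425 to 16.6 ± 1.02, and BoM went from 18.6 ± 1.24 to 14.7 ± 0.790 (mean ± SD, n = 3). The groups overlapped in LM2 and in neither of the other lines. HOXC RNA summed to 0.794, 2.83 and 2.48 CPM per kb in shCtrl of LM2, BrM3 and BoM, and to 0.555, 1.69 and 1.32 in shWDR5.

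**Figure D3:**
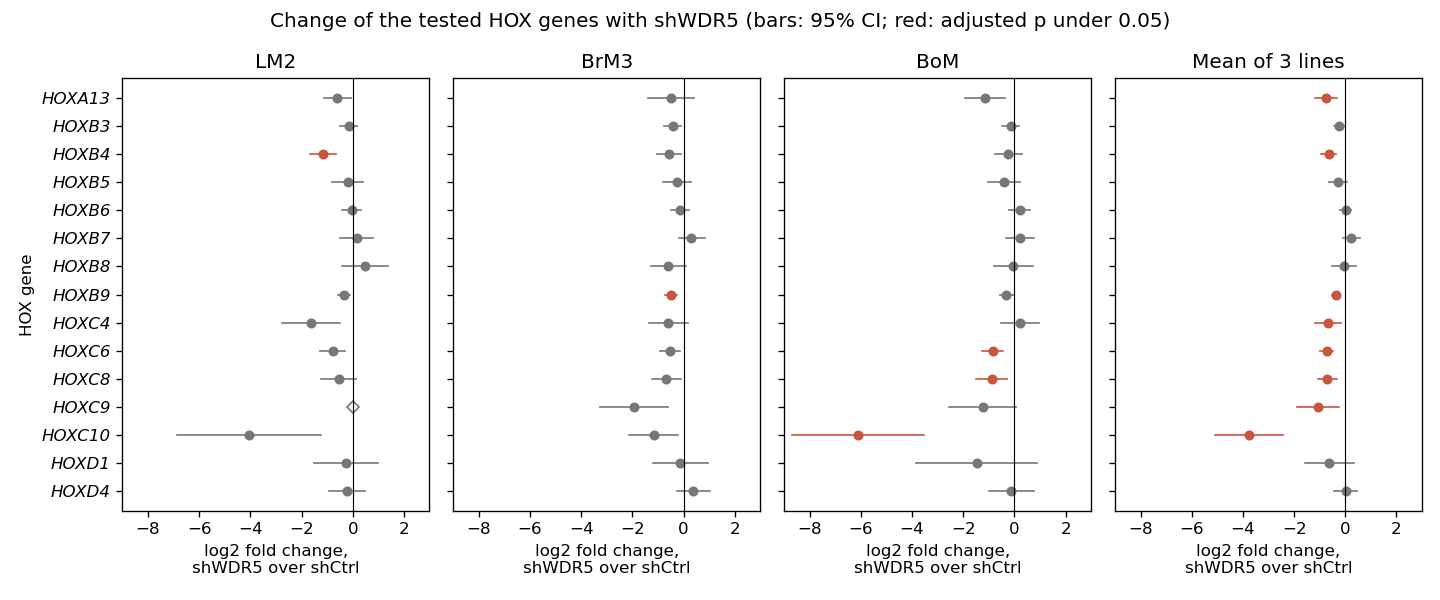
Log2 fold change of shWDR5 over shCtrl for the 15 tested HOX genes in each line and averaged over the lines, with 95% confidence intervals. Red genes passed an adjusted p of 0.05 (edgeR), and the open diamond has no standard error. Few genes pass within a line, and in the average HOXA13, HOXB4, HOXB9 and the HOXC genes lie left of 0.

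Within single lines few genes passed: 1 in LM2 (HOXB4), 1 in BrM3 (HOXB9) and 3 in BoM (HOXC6, HOXC8 and HOXC10), all lower. Of all tested genes, 3.46% were called lower and 1.22% higher in LM2, with 5.91% and 2.73% for BrM3 and 8.46% and 4.15% for BoM. Of the 15, 12 had a negative fitted change in LM2, 13 in BrM3 and 12 in BoM. Their median log2 fold changes were -0.27, -0.50 and -0.31, against 0.00, -0.02 and 0.01 over all genes tested. All 3 shWDR5 libraries lay below all 3 shCtrl libraries for 4 of the 15 in LM2, for 8 in BrM3 and for 6 in BoM, against 13.2%, 18.2% and 16.0% of all genes tested. HOXB9 did so in all 3 lines, as 5.38% of all genes did, and HOXC10 also, in LM2 with 0 counts against 1 to 7. The counts of negative changes and of genes without overlap include HOXC10 in each line, and HOXC9 in BrM3 and BoM. The filter favoured a lower shWDR5 value for both, and so also favoured the call of HOXC10 in BoM. Without LM2 shCtrl replicate 3 or LM2 shWDR5 replicate 1 no gene was called in LM2, and without LM2 shCtrl replicate 1 or LM2 shWDR5 replicate 3 there were 2. In BrM3 none was called without shCtrl replicate 1 or 3, and 2 and 3 without LM2 shWDR5 replicate 2 and 3.

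HOXB9 fell to 76.8% of shCtrl over the lines. It read 9.70, 9.66 and 11.3 CPM in the LM2 shWDR5 libraries, 21.1, 26.1 and 26.6 in BrM3, and 25.5, 29.1 and 23.1 in BoM, against the shCtrl values given above. Every shWDR5 library was below every shCtrl library of its line. The averaged log2 fold change was -0.38 ± 0.07 (SE; edgeR adjusted p = 3.1e-04). It was -0.34, -0.49 and -0.31 in LM2, BrM3 and BoM, and passed in BrM3 (adjusted p = 0.11, 0.013 and 0.088). The other HOXB gene that fell was HOXB4, which expands blood stem cells when overexpressed. It read 0.816, 0.826 and 1.04 CPM in LM2 shCtrl and 0.354, 0.453 and 0.394 in LM2 shWDR5. In BrM3 the values were 1.13, 1.16 and 1.05, and 0.644, 0.879 and 0.732, and in BoM 0.524, 0.844 and 0.838, and 0.713, 0.470 and 0.614. The groups did not overlap in LM2 and BrM3, and they overlapped in BoM. HOXB4 changed by -1.16 ± 0.24 in LM2 (adjusted p = 0.0075) and by -0.65 ± 0.14 on average (adjusted p = 0.0013).

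The remaining HOXB genes did not pass in any line, but HOXB3 passed in BrM3 with a GC correction (edgeR adjusted p = 0.0499), a term for the replicate number, or replicate block (0.0490), both (0.015) or BrM3 fitted alone (0.042). HOXB3, which acts in the hindbrain, read 6.05, 7.45 and 8.56 CPM in LM2 shCtrl and 5.88, 6.35 and 7.83 in LM2 shWDR5, 8.03, 8.10 and 7.82 against 5.79, 5.78 and 6.33 in BrM3, and 7.09, 5.78 and 4.58 against 5.28, 4.90 and 5.68 in BoM. The groups were apart in BrM3 alone, and the averaged change was -0.24 ± 0.09 (edgeR adjusted p = 0.0524, and 0.026 with the replicate block). HOXB5 changed by -0.28 on average (95% confidence interval -0.62 to 0.06), HOXB6 by 0.01 (-0.21 to 0.23), HOXB7 by 0.23 (-0.10 to 0.56) and HOXB8 by -0.05 (-0.53 to 0.43). HOXB7 had the highest averaged change of the 15 genes. HOXB7 was higher in all BrM3 shWDR5 libraries (1.40, 1.39 and 1.33 CPM) than in any BrM3 shCtrl library, with a log2 fold change of 0.31 ± 0.24 that did not pass (adjusted p = 0.47).

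HOXC6 read 0.556, 0.815 and 1.41 CPM in LM2 shWDR5, 3.86, 3.85 and 3.48 in BrM3 shWDR5, and 2.25, 2.27 and 2.69 in BoM shWDR5. These were below every shCtrl library of the line in BrM3 and BoM, and LM2 overlapped through replicate 3. HOXC6 changed by -0.72 ± 0.12 on average (60.7% of shCtrl, edgeR adjusted p = 1.8e-04) and by -0.85 ± 0.20 in BoM (adjusted p = 0.0089). HOXC8, a thoracic gene, read 0.520, 0.561 and 0.533 CPM in LM2 shCtrl and 0.177, 0.407 and 0.620 in LM2 shWDR5, 1.56, 1.57 and 1.05 against 0.761, 0.845 and 0.970 in BrM3, and 1.60, 1.25 and 1.63 against 1.03, 0.509 and 0.806 in BoM. The groups were apart in BrM3 and BoM, and LM2 overlapped, again through replicate 3. The averaged change was -0.70 ± 0.17 (61.6% of shCtrl, adjusted p = 0.0044). In BoM it was -0.89 ± 0.29 with an adjusted p of 0.0495, and that call was lost on leaving out any of 15 of the 18 libraries.

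HOXC10, the most posterior HOXC gene tested and one that acts in lumbar segments, had the largest fitted changes, at low counts. It had 2, 1 and 7 counts in the LM2 shCtrl libraries and 7, 6 and 7 in the BoM shCtrl libraries, and 0 in all 6 shWDR5 libraries of these lines. BrM3 had 12, 19 and 19 counts in shCtrl and 3, 5 and 9 in shWDR5 (0.243, 0.481 and 0.488 against 0.176, 0.169 and 0.178 CPM). The groups were apart in each line, though in LM2 a single count in shWDR5 replicate 3 would have read 0.0563 CPM, above the 0.0165 CPM of shCtrl replicate 2. With a floor of 3 counts over the shWDR5 group, HOXC10 was 1.95-fold lower in LM2 and 5.99-fold lower in BoM. The floor covers counting error of the shWDR5 group only. The shCtrl counts (10 in LM2 and 20 in BoM) were taken as read, so these folds are not strict lower bounds. In BrM3 the fitted change was -1.17 ± 0.45 (edgeR adjusted p = 0.13). The adjusted p was 0.0041 in BoM and 3.3e-04 for the average, and the fitted sizes of these changes depend on the prior count because of the groups at 0.

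HOXC9, HOXC4 and HOXA13 completed the genes lower on average. HOXC9, a thoracic gene, read 0.324, 0.481 and 0.488 CPM in BrM3 shCtrl and 0.0585, 0.0676 and 0.158 in BrM3 shWDR5, and 0.300, 0.537 and 0.345 against 0.185, 0.118 and 0.192 in BoM. In LM2 it read 0.0371, 0.0495 and 0.145 in shCtrl, and 0.0758, 0.0151 and 0.394 in shWDR5, with 1 to 18 counts a library. BrM3 and BoM were apart, and LM2 overlapped. The averaged change of -1.05 ± 0.39 (edgeR adjusted p = 0.044) passed in 6 of the 18 fits that each left out 1 library, and without LM2 shWDR5 replicate 3 it was -1.48.

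HOXC4 read 0.111, 0.215 and 0.137 CPM in LM2 shCtrl and rested on 1 to 3 counts in each LM2 shWDR5 library (0.0453 to 0.0563 CPM). It read 0.505, 0.557 and 0.231 against 0.234, 0.338 and 0.277 in BrM3, and 0.275, 0.511 and 0.493 against 0.396, 0.509 and 0.576 in BoM. Only LM2 was apart, and BoM had a positive change of 0.22 ± 0.35 (edgeR adjusted p = 0.73). The averaged change of -0.67 ± 0.25 (adjusted p = 0.0462) also passed in 6 of the 18 fits that left out a library. HOXC4 shares 17.5% of its exon bases with other genes of its strand, HOXC6 among them. HOXA13 read 0.833, 0.981 and 1.52 CPM in LM2 shWDR5, 0.293, 0.0676 and 0.218 in BrM3 shWDR5, and 0.211, 0.313 and 0.269 in BoM shWDR5. BoM was apart from its shCtrl values, and LM2 and BrM3 overlapped. HOXA13 changed by -0.75 ± 0.21 on average (59.5% of shCtrl, adjusted p = 0.010).

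HOXC5 was too low for this test. It had 0, 2 and 11 counts in LM2 shCtrl, 12, 6 and 7 in BrM3 shCtrl and 3, 10 and 2 in BoM shCtrl. With shWDR5 the counts were 0, 2 and 0 in LM2, then 1, 0 and 3 for BrM3, and 1, 0 and 2 for BoM. In a fit of all 41236 genes with a count, its averaged log2 fold change was -1.98 ± 0.52 (edgeR adjusted p = 0.0020), where 8.22% of all genes were called lower. HOXC5 shares 67.3% of its exon bases with other annotated genes of its strand and its RefSeq start with HOXC4, so its reads may not be separable from theirs.

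**Figure D4:**
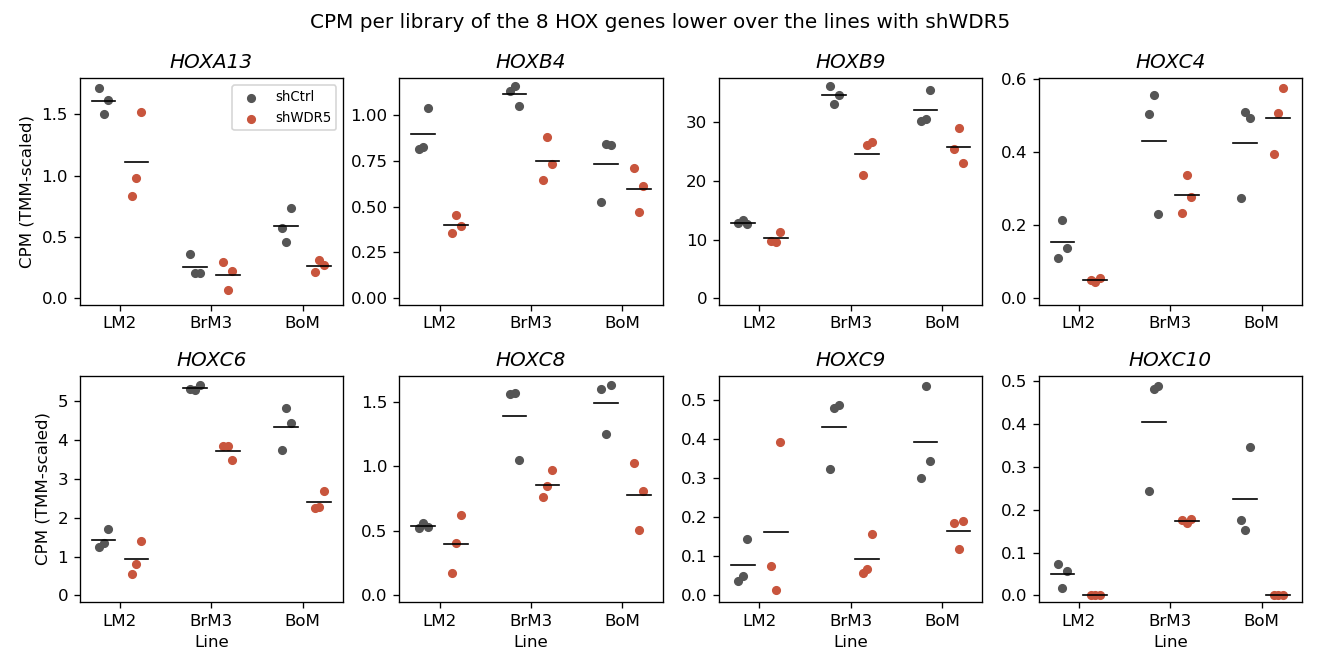
CPM after TMM scaling in each library of the 8 HOX genes that were lower on average with shWDR5, by line, with a separate linear axis from 0 for each gene. Grey points are shCtrl, red points shWDR5 and black lines group means. HOXB9 and HOXC10 are apart in all 3 lines, HOXC6, HOXC8 and HOXC9 in BrM3 and BoM, and HOXC4 in LM2.

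The library LM2 shWDR5 replicate 3, with 18108832 counts the shallowest of its line, was the highest of its group for 11 of the 15 tested genes, HOXA13, HOXC6, HOXC8 and HOXC9 among them. Its WDR5 level was within the group's range of 20.5 to 24.7 CPM. In LM2 shCtrl the shallowest library, replicate 1, was the lowest of its group for 10 of the 15. Without LM2 shWDR5 replicate 3, 8 HOX genes were called lower on average. Leaving out each library in turn gave 6 to 9 HOX genes lower on average.

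The HOXD genes did not pass the test. HOXD4 read 0.328, 0.498 and 0.845 CPM in LM2 shWDR5, 1.05, 0.946 and 1.29 in BrM3, and 0.475, 0.274 and 0.192 in BoM, overlapping shCtrl in each line. Its averaged change was 0.01 (95% confidence interval -0.44 to 0.46). HOXD1 changed by -0.62 (-1.58 to 0.34) and overlapped in each line. The interval of HOXD1 holds the averaged change of HOXC6, and that of HOXD4 does not.

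The response to shWDR5 was not shown to differ between lines for any HOX gene. The difference of the changes was tested for each pair of lines, and edgeR called 0 of the 15 in each (background 0%, 0% and 0.00543% of all genes). DESeq2 called 0 too (0.0543%, 0.190% and 0.0217% of all genes). At an unadjusted p under 0.05 there were 0 for BrM3 minus LM2, 2 for BoM minus LM2 (HOXB4, 0.91 ± 0.35, and HOXC4, 1.86 ± 0.65) and 1 for BoM minus BrM3 (HOXC10, with BoM shWDR5 at 0), against 3.12%, 5.23% and 3.43% of all genes. The edgeR adjusted p of the differences of HOXB4 and HOXC4 was 0.77 and 0.66.

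Regulators and partners of the HOX genes were read from lists, each described by its counts beside the background of 17.6% lower and 14.3% higher in the averaged contrast (22.3% and 19.6% at an unadjusted p under 0.05, and 16.7% and 16.8% by DESeq2). In the KMT2 list (12 tested) WDR5 and MEN1 fell and SETD1B and ASH2L rose. MEN1, which encodes menin, the partner that brings KMT2A to HOX genes, went in LM2 from 59.1 to 39.0 CPM, in BrM3 from 57.4 to 46.7 and in BoM from 58.2 to 37.6 (group means; averaged change -0.51 ± 0.08, edgeR adjusted p = 1.3e-04). SETD1B changed by 0.40 ± 0.09 and ASH2L by 0.20 ± 0.05 (adjusted p = 0.0027 and 0.0094). Of the 9 PRC2 genes tested, 5 rose and 0 fell by edgeR (7 and 0 at an unadjusted p under 0.05, 6 and 0 by DESeq2), led by the histone-binding subunit RBBP4 (0.35 ± 0.05, adjusted p = 6.1e-05), with EZH1 (0.17), EED (0.18), EZH2 (0.15) and RBBP7. The list's median was 0.15. Of 13 PRC1 genes, CBX6 (-0.28) and PHC1 (-0.31) fell and BMI1 (0.25) and PCGF1 (0.22) rose. The demethylase KDM6A, which removes the mark that PRC2 sets, rose by 0.26 ± 0.05 (adjusted p = 0.0010). Of the 7 DOT1L complex genes, MLLT3 (0.18), MLLT10 (0.13) and AFF4 (0.25) rose. Retinoid receptors, CDX factors and CTCF, taken as upstream inducers, had 6 members tested and 0 called by edgeR (2 at an unadjusted p under 0.05, and 1 by DESeq2). The medians were 0.08 for the KMT2 list, 0.09 for PRC1, 0.16 for the demethylases, 0.11 for DOT1L and 0.05 for the inducers, against -0.01 over all genes.

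Among the TALE cofactors, which bind DNA together with HOX proteins, 10 were tested, of which 1 fell and 4 rose. MEIS3 went from 1.17 to 0.532 CPM in LM2, 0.274 to 0.0959 for BrM3 and 0.402 to 0.187 for BoM (group means; averaged change -1.16 ± 0.27, edgeR adjusted p = 0.0028). PKNOX1 (0.26 ± 0.05), MEIS2 (0.24 ± 0.05), TGIF1 (0.28 ± 0.07) and TGIF2 (0.23 ± 0.08) rose, and the list's median was 0.10. Of 19 noncoding RNAs of the clusters, 3 were tested. HOXC-AS2, which lies on the strand opposite HOXC9 and HOXC6, fell by 1.06 ± 0.37 on the log2 scale (adjusted p = 0.033; not called by DESeq2). Its exons overlap those of both genes, and how reads on the shared bases were counted is not stated in the sources used here. Of 9 tested genes that flank the clusters, 4 fell and 1 rose (median -0.06). Beside the HOXB cluster, SKAP1 changed by -0.92 ± 0.17 and TTLL6 by -1.51 ± 0.31 (adjusted p = 4.9e-04 and 0.0011). SKAP1 went from 0.183 to 0.116 CPM in LM2, where it did not pass, from 1.84 to 0.803 for BrM3 and from 1.25 to 0.520 for BoM, where it passed (adjusted p = 0.84, 0.0045 and 0.0028). SKAP2 beside HOXA and SMUG1 beside HOXC changed by -0.27 each, and CBX5 beside HOXC by 0.23.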

How the data were processed

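RNA-seq covered 18 libraries of the lines LM2, BrM3 and BoM with shCtrl or shWDR5 (6 groups of 3). The authors aligned paired-end reads to hg38 with STAR (2.7.0, after CASAVA 1.8.2, per the submitters' processing notes) and deposited raw counts per gene, with no normalization. The deposited table of fold changes and adjusted p-values holds the authors' own comparisons and was not used. Column names mark the lines and the shWDR5 libraries, and the remaining columns were taken as shCtrl. The cell line labels of BrM3 libraries read BrM2, and the source labels of 12 of the 18 libraries name another line than the title. Lines were taken from the titles, from which the cell line labels differ in 0 libraries apart from that name, and all comparisons of lines rest on them. Every per-sample column was mapped (0 left over).

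Counts of 18428 genes (filterByExpr, minimum count 10, minimum total 15) were scaled by TMM and fitted with edgeR (4.0.16, R 4.3.3) quasi-likelihood over all 6 groups (12 residual degrees of freedom), with Benjamini-Hochberg adjustment over all genes and a threshold of 0.05. Standard errors were derived from the fold change and the F statistic. The averaged contrast weights the lines equally. All contrasts share libraries. DESeq2 (1.42.0), other scaling and filters, a GC correction, a replicate block, separate fits by line and omission of each library were alternatives. Levels are CPM per kb of GENCODE 44 exon. The fit was tested on simulated data: in the averaged contrast, over 18428 genes, 85% of 100 genes changed by 1 on the log2 scale and 52% of 100 changed by 0.5 were recovered, and within single lines 58% to 63% and 6% to 16%. The changed genes were drawn at random from all tested genes, and no pairing of replicates was simulated. Every HOX gene but HOXB9 was below the median tested gene, so these shares do not give the recovery for HOX genes.

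Named genes were those called with shWDR5, the 3 highest per cluster in shCtrl, those called between lines with a log2 difference of at least 1 (at most 10), and up to 4 called per regulator list (EZH2 and RBBP7 are beyond that for PRC2). One item that this rule names is not reported here. HOX genes and lists were chosen with earlier results of these data known. Homeodomain sequences were not analysed here. Replicates are passages of 1 population each, so p-values measure the spread between passages. Floors cover counting error of the shWDR5 group only, and the 95% intervals come from the fit and hold the spread between passages too.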

Additional observations from a re-analysis of the deposited data

How the results depend on the processing

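HOX genes called lower with shWDR5 on average (8) numbered 7 to 9 with DESeq2, RLE factors, no filter, a GC correction or the replicate block, and 3 with the HTSFilter-type filter, which left HOXB3, HOXB9 and HOXC6 to test. With that filter BoM had 1, and 2 (BrM3 against LM2), 2 (BoM against LM2) and 1 (BoM against BrM3) were called between lines, since fewer genes were tested. In LM2 the count of 1 became 2 with DESeq2, the GC correction, the replicate block, or block and GC correction, and 0 with each line fitted alone. In BrM3 it became 2 with DESeq2 or no filter, and 4 with the GC correction, the block, both together, or each line alone. The cause of these moves was not tested. With 1 library left out, counts ranged from 0 to 2 in LM2, 0 to 3 in BrM3, 2 to 4 in BoM and 6 to 9 on average. Between lines they ranged from 11 to 12 (BrM3 against LM2), 9 to 10 (BoM against LM2) and 1 to 7 (BoM against BrM3), and the differences of the response stayed at 0.

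Averaged calls of HOXC4 and HOXC9 were lost with DESeq2 (adjusted p = 0.10 and 0.089) and the block (0.056 and 0.058), that of HOXC4 also without a filter (0.11). HOXC8 in BoM was lost with RLE factors (0.0521) or BoM alone (0.081), and HOXB4 in LM2 with LM2 alone (0.058). No call reversed its sign. Deviations of same-numbered shCtrl and shWDR5 libraries from their group means correlated from -0.0192 to 0.353 (mean 0.184). The mean for different numbers was -0.0947. Centring each group on its own mean largely sets that value once the first is known, so it is no separate observation. Of 18 libraries, 15 correlated best with their own number, so the libraries may be partly paired, and the main fit took no account of that. With the replicate block, calls over all genes in the averaged contrast went from 3243 lower and 2631 higher to 3776 and 3536. In BoM alone all 3 pairs were over 0.1 (0.110 to 0.245), and the block called 4 genes there, adding HOXA13 (adjusted p = 0.037). With exon bases covered by no other gene, the HOX sum was 10.4 in LM2 and 23.7 CPM per kb in BrM3, and the HOXB share 79.97%, 79.29% and 81.70% in LM2, BrM3 and BoM. HOXC4, HOXC9, HOXC10, HOXB8 and HOXD1 rest on few counts, and depth limits their precision.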

Other observations

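HOXB2 was present at 1 to 25 counts in all 18 libraries, and in a fit of all 41236 genes with a count changed by -0.20 ± 0.37 (edgeR adjusted p = 1.0). HOXD12 had 28 counts in 11 libraries and changed by -1.90 ± 0.84 (adjusted p = 0.13). HOXC13, at the posterior end of its cluster, had 12 counts, 7 of them in BoM shCtrl (5, 0 and 2).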
